A study of Homo sapiens with 12 samples.

Results

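The genes described here are those whose mRNA was well represented in BT474 cells before lapatinib and after 9 days of it, and was lost from the cells that had become resistant. The members were chosen by the measured means of 3 of the 4 groups. A gene was taken when its mean was at least 20 normalised read counts in both Control and DTP and its mean in LR was at most 1% of the smaller of those means. Of 26485 genes listed, 6923 reached 20 in both Control and DTP, and 118 of these, or 1.70%, met the rule. A further 3 genes that met it, ESR1, PGR and VIM, were left out by name. The LR, Control and DTP values therefore chose these genes, and their loss in LR is given as a description with no test. The DTEP libraries took no part in the choice, and the difference between DTP and Control was not fixed by it beyond the floor of 20 in both groups, so the comparisons of DTP with Control and of DTEP with both were tested. The tests of DTEP still set it against values that the rule had used.

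BT474 is an established line of human breast cancer cells with amplified ERBB2 (HER2), and lapatinib blocks the kinases of HER2 and EGFR. Untreated cells of day 0 (Control) were compared with cells after 9 days (drug-tolerant persisters, DTP), 6 months (drug-tolerant expanded persisters, DTEP) and 9 months (long-term resistant cells, LR), the last 3 groups under 1 µM lapatinib and no other agent. mRNA was sequenced from 3 libraries per group. The treatment label of the Control libraries also names lapatinib, while their titles give day 0, and the titles were followed. The study calls the libraries of a group technical replicates and also describes parallel plates, so n counts libraries of a single line, and SDs and p-values do not cover independent derivations of resistance. A normalised read count is a count scaled to a common library total, comparable between libraries for one gene but not corrected for gene length. The depth was 16383363 to 25030482 reads, and a gene without a read in a library could still stand at up to 0.124 to 0.173 normalised read counts, the worth of 3 reads. In these bulk samples fewer cells expressing a gene and less RNA per cell cannot be told apart.

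As background, the amount of an mRNA reflects how often its gene is transcribed and how fast the transcript decays, and a stably silenced gene can pass that state on as cells divide. Luminal breast cancer cells are known for a secretory and hormone-responsive programme, in which the estrogen receptor drives genes such as TFF1 and GREB1. The promoters of vertebrate genes fall into those rich and those poor in CpG dinucleotides, the sites where DNA can be methylated.

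The 118 genes covered many functions. By known role, assigned after their values were seen, 16 encode secreted or matrix proteins, 17 surface receptors or adhesion proteins, 6 channels or transporters, 13 metabolic enzymes, 19 transcription factors or chromatin proteins, 10 cytoskeletal proteins and 14 signalling proteins of the cell interior. The other 23 have other or less known roles. The mean of the Control and DTP means ran from 21.1 to 2867 normalised read counts, with a median of 62.3 against 73.3 over all 6923 genes at the floor. All 118 passed the filter on low values that left 13794 genes to test (1 or more normalised read counts in 3 or more libraries), and the floor of the rule ensured this.

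The members' promoters did not share one composition. RefSeq promoter windows (build GRCh38.p14, to which hg38 corresponds), from 250 bases before to 50 bases after the start, were at hand for 86 of the 118 genes (72.9%). With under 80% matched, a comparison of their base composition with other genes is void. Among the 86, 59 (68.6%) had a ratio of observed to expected CpG above 0.6 and the other 27 were at or below it. The share above 0.6 was 88.7% over the genes at the floor that had a window and 81.7% over all genes tested that had one, and nothing is read from these shares at this coverage. The 3 windows printed here show how wide that range was, with each CpG in capitals and the sequence 5′ to 3′ on the strand of the gene. TCN1, the member with the highest level, had 1 CpG, LDHB had 14 and ATP9A had 65.

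TCN1, chr11:59866438-59866737, minus strand: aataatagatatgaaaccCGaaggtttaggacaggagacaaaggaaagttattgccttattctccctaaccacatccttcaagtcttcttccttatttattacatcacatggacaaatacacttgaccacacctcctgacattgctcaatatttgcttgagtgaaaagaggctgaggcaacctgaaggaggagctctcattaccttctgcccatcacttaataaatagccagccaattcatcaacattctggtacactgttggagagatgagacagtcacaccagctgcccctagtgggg

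LDHB, chr12:21657793-21658092, minus strand: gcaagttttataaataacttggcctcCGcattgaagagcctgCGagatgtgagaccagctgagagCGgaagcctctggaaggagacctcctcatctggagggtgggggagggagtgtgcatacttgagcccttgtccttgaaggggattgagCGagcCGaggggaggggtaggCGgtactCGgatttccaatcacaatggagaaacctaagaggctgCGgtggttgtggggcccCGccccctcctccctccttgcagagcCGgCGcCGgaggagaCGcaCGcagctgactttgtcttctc

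ATP9A, chr20:51768341-51768640, minus strand: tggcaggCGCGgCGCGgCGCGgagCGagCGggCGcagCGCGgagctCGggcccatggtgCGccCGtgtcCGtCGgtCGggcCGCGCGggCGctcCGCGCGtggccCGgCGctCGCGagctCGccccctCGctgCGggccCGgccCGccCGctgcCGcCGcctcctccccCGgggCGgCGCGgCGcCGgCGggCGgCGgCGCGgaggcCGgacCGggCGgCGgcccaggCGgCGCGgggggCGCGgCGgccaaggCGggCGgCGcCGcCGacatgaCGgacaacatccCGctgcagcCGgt

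The levels of both kinds in the later groups are given as a description, since the rule had capped the LR level of every member at 1%. The median LR level was 0.0874% of the smaller of the Control and DTP means in the 59 CpG-rich members and 0.118% in the 27 CpG-poor ones. No read was found in LR for 9 of the 59 and 6 of the 27. In the DTEP libraries 1, 2 and 3 the CpG-rich members stood at medians of 12%, 5.43% and 0.507% of the mean of the Control and DTP means, and the CpG-poor ones at 12.4%, 4.21% and 0.658%. No methylation was measured in these samples.

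The loss in LR was close to complete. The median member stood in LR at 0.104% of the smaller of its Control and DTP means, with a range of 0 to 0.883%. A total of 18 members had 0 reads in all 3 LR libraries, and 70 had 3 reads or fewer in every LR library. The most reads that any member had in 1 LR library was 54. Together the 118 genes took 1.55% to 1.59% of all reads in the Control libraries, 1.58% to 1.63% in DTP, and 0.00147%, 0.00173% and 0.00314% in LR replicates 1, 2 and 3. Among the members without a read in LR, STAC2 (chr17:39210541-39225945), an adaptor protein, had the highest level, with 118, 124 and 124 in Control and 177, 159 and 138 in DTP. Against the worth of 3 reads in each LR library it was at least 736-fold lower there. LDHB (chr12:21635342-21657842), the lactate dehydrogenase subunit of heart-type enzyme, also had no read in LR, after 53.4, 52.0 and 48.5 in Control and 24.4, 29.6 and 26.6 in DTP.

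Few genes lay just outside the limit. Over the 6923 genes at the floor, 121 had an LR level of 1% or less, 11 lay above 1% and up to 2%, 25 above 2% and up to 5%, 58 above 5% and up to 10%, and 162 above 10% and up to 25%. The members nearest below the limit were RHOBTB3 at 0.883%, EMP1 at 0.873% and AFF3 at 0.864%, and the nearest genes above it were TMEM229B at 1.00%, VWA5B2 at 1.08% and MX2 at 1.09%. EMP1 (chr12:13196726-13219941), a small epithelial membrane protein, stood at 30.1, 31.9 and 29.2 in Control and 22.1, 21.8 and 25.9 in DTP, then at 2.39, 1.07 and 0.337 in DTEP replicates 1, 2 and 3 and 0.0422, 0.277 and 0.291 in LR. AFF3 (chr2:99545419-100142590), a nuclear protein of the AF4 family, stood at 90.5, 89.4 and 89.3 in Control and 27.3, 34.7 and 45.3 in DTP, then at 2.44, 0.824 and 0 in DTEP replicates 1, 2 and 3 and 0.0422, 0.885 and 0 in LR. In both, the 3 DTEP libraries lay below every Control and DTP library. In AFF3, LR replicate 2 with 0.885 lay above DTEP replicates 2 and 3, so the DTEP and LR groups overlapped.

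**Figure D1:**
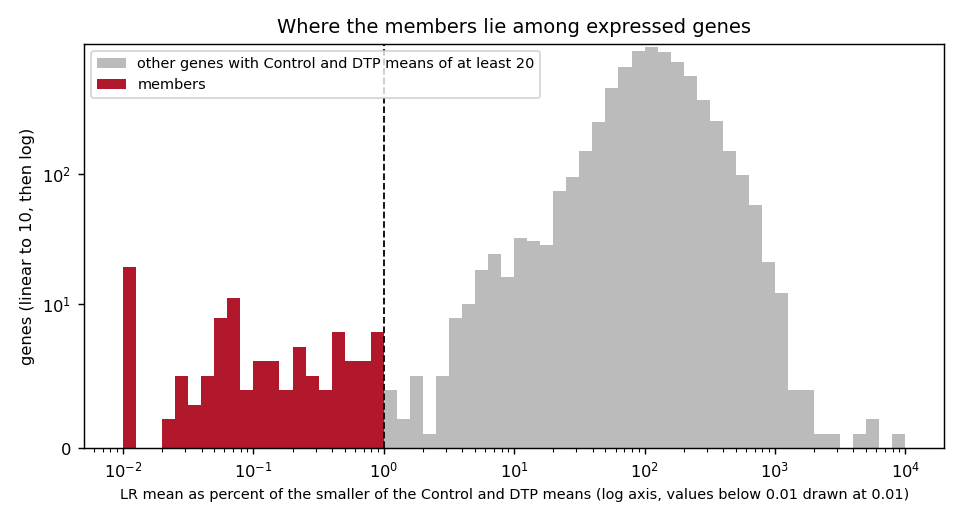
Histogram of the 6920 genes with Control and DTP means of at least 20 (ESR1, PGR and VIM left out), by their LR mean as a percent of the smaller of those means (log axis, values below 0.01 drawn at 0.01; number of genes linear to 10, then log). The 118 members, in red, lie at or below the dashed line at 1%, with 18 of them at 0.

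The members with the highest levels are given first, with the values of replicates 1, 2 and 3 of each group in that order. TCN1 (chr11:59852808-59866487), the vitamin B12 carrier haptocorrin, stood at 3007, 2976 and 3128 in Control and 2612, 2848 and 2629 in DTP, then at 452, 119 and 6.74 in DTEP and 0.591, 0.332 and 1.36 in LR. MUC6 (chr11:1012823-1036718), a gel-forming mucin, stood at 781, 776 and 809 in Control and 151, 135 and 154 in DTP, then at 3.92, 2.51 and 0.617 in DTEP and 0.0422, 0.0553 and 0.194 in LR. MUC6 was thus already lower in every DTP library than in any Control library, while the TCN1 levels of both groups lay between 2612 and 3128. TFF1 (chr21:42362282-42366535), a secreted trefoil peptide, stood at 354, 339 and 367 in Control and 337, 312 and 217 in DTP, then at 49.5, 14.1 and 2.25 in DTEP and 0.465, 2.99 and 0.727 in LR. MDK (chr11:46380784-46383837), the heparin-binding growth factor midkine, stood at 339, 317 and 348 in Control and 211, 168 and 128 in DTP, then at 10.1, 3.25 and 2.02 in DTEP and 1.35, 1.16 and 1.36 in LR. In TFF1 the LR replicate 2 value lay above DTEP replicate 3, and in MDK all 3 DTEP libraries lay above LR. The 16 secreted and matrix proteins had a median of 8.37% of the Control and DTP level in DTEP replicate 1, the lowest median of the 8 role groups.

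Adhesion, transport and cytoskeletal proteins were also among the members with the highest levels. NRCAM (chr7:108147649-108456720), an immunoglobulin-family cell adhesion molecule, stood at 436, 439.8 and 396 in Control and 161, 211 and 303 in DTP, then at 39.9, 23.4 and 1.74 in DTEP and 0.0845, 0 and 0.291 in LR. ATP9A (chr20:51596514-51768390), a P4-type ATPase of the phospholipid flippase family, stood at 707, 704 and 706 in Control and 388, 429.7 and 540.5 in DTP, then at 67.5, 34.3 and 3.59 in DTEP and 0.253, 0.111 and 0.824 in LR. KIF1A (chr2:240713767-240821403), a kinesin motor that carries vesicles along microtubules, stood at 746, 709 and 782 in Control and 524, 481 and 468 in DTP, then at 51.6, 24.8 and 2.19 in DTEP and 0.380, 0.111 and 0.242 in LR. In each of these genes no Control or DTP library overlapped a DTEP library, and no DTEP library overlapped LR. DHRS2 (chr14:23630115-23645639), a short-chain dehydrogenase, stood at 311, 301 and 327 in Control and 574, 542 and 468 in DTP, then at 118, 35.9 and 5.44 in DTEP and 0.507, 0.719 and 1.36 in LR. HSPB8 (chr12:119178931-119194746), a small heat shock protein, stood at 159, 152 and 149 in Control and 666, 688 and 647 in DTP, then at 176, 41.8 and 5.16 in DTEP and 0.634, 0.166 and 0.388 in LR. For both genes the DTP libraries were the highest of all, and for HSPB8 DTEP replicate 1 lay above the Control libraries.

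The transcriptional and signalling members repeated the pattern. GREB1 (chr2:11482888-11642788), a cofactor of the estrogen receptor, stood at 489.6, 475 and 477 in Control and 456, 456 and 557 in DTP, then at 61.8, 26.0 and 4.38 in DTEP and 0.591, 0.941 and 1.65 in LR. IKZF3 (chr17:39757715-39864312), the zinc finger transcription factor Aiolos, stood at 327, 323 and 318 in Control and 252, 263 and 282 in DTP, then at 32.5, 12.5 and 1.85 in DTEP and 0.0845, 0.111 and 0.388 in LR. PLEKHG4B (chr5:92168-189966), a guanine nucleotide exchange factor, stood at 253, 254 and 281 in Control and 304, 303 and 304 in DTP, then at 24.9, 9.19 and 1.07 in DTEP and 0, 0 and 0.0969 in LR. PLEKHG4B had a single LR library with reads, and the 3 genes had DTP and Control levels near each other. PLEKHG4B had an LR level of 0.0123% of the smaller of the Control and DTP means, the lowest of the 12 genes with the highest levels, and MDK, at 0.763%, the highest.

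**Figure D2:**
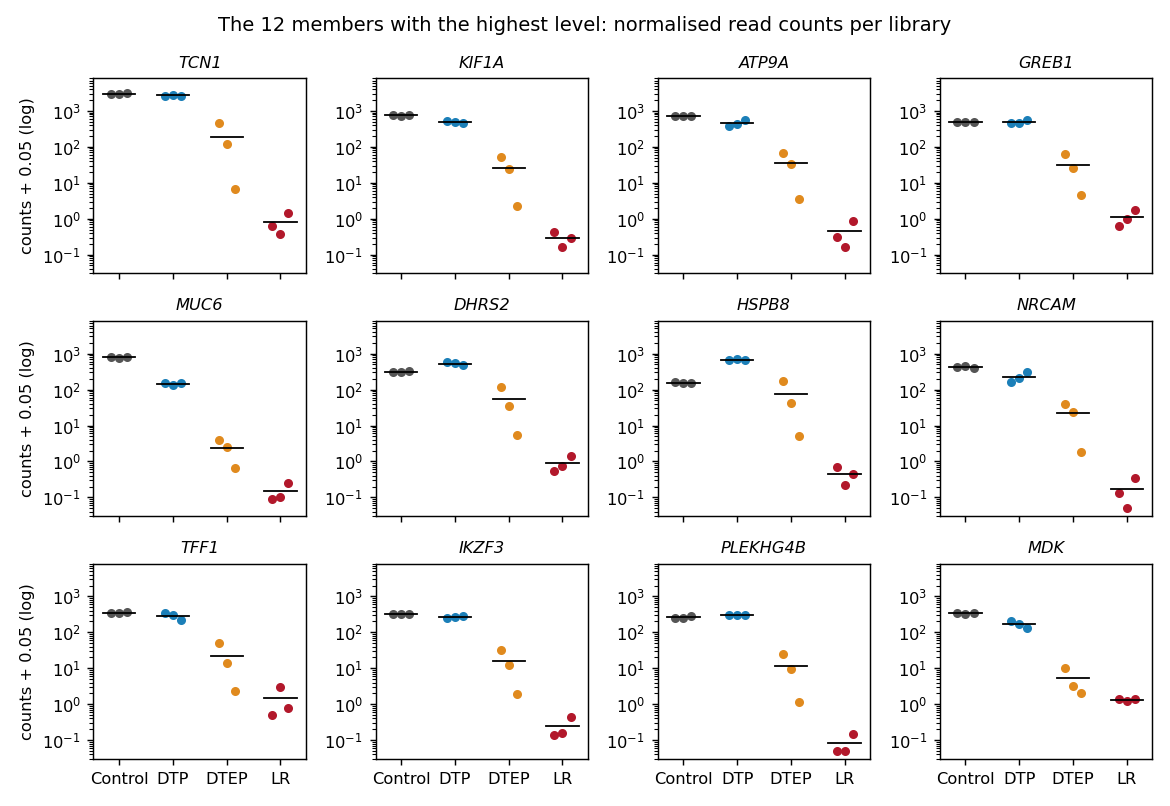
Normalised read counts of the 12 members with the highest mean of the Control and DTP means, per library (log axis, 0.05 added to each value), with points in the order of replicates 1 to 3 and a line at the group mean. In all 12 genes DTEP replicate 1 is the highest and replicate 3 the lowest of the DTEP points, as in TCN1 with 452, 119 and 6.74.

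Whether the members had begun to fall by day 9 was asked by comparing DTP with Control in limma, on log2(value + 1), where a gene was called if its log2 change exceeded 2 in size and its Benjamini-Hochberg adjusted p was under 0.05. Of the 118 members, 4 were called lower and 4 higher in DTP, and 110 were neither. The background was 1.27% called lower and 0.318% called higher among the 6923 genes at the floor, and 3.9% and 1.01% among all 13794 genes tested. The median log2 change over the members was 0.06, with a range of -3.72 to 2.48, beside -0.02 over the genes at the floor. The Control and DTP libraries did not overlap in 98 members, lower in DTP in 46 and higher in 52, where 39.6% of all tested genes were lower and 37.7% higher in every library.

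The 4 members called lower by day 9 are a growth factor, an adhesion molecule, a mucin and a neuronal cytoskeletal protein. Other members fell by less, and at an absolute log2 change above 1 the count called lower was 15. BMP7 (chr20:57168753-57266641), a ligand of the TGF-beta superfamily, stood at 276, 269 and 297 in Control and 20.2, 20.8 and 20.3 in DTP (log2 change -3.72 ± 0.16 (SE), limma adjusted p = 5.16e-08). CEACAM6 (chr19:41755530-41772211), a membrane-anchored adhesion glycoprotein, stood at 202, 218 and 212 in Control and 22.9, 27.1 and 27.9 in DTP (log2 change -2.98 ± 0.25 (SE), limma adjusted p = 3.82e-06). DPYSL5 (chr2:26847995-26950351), a collapsin response mediator protein, stood at 109, 110.1 and 111 in Control and 22.8, 22.0 and 19.3 in DTP (log2 change -2.31 ± 0.25 (SE), limma adjusted p = 1.94e-05). The rule required a mean of at least 20 in DTP, and the means of BMP7, CEACAM6 and DPYSL5 there were 20.4, 26.0 and 21.4. MUC6, with the values above, was called lower as well (log2 change -2.42 ± 0.30 (SE), limma adjusted p = 5.84e-05). These 4 calls held in all 21 alternatives with a value.

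The 4 members called higher by day 9 did not all hold their calls across alternatives. Each SE pools the spread over all 12 libraries, so scatter among the DTEP libraries enters it. HSPB8 stood at 149 to 159 in Control and 647 to 688 in DTP, but at 176, 41.8 and 5.16 in DTEP. With only the 6 libraries compared in the model, all 4 were called. FGD3 (chr9:92947523-93036233), an exchange factor of the Cdc42 regulator family, stood at 29.8, 26.6 and 27.6 in Control and 185, 158 and 140.2 in DTP (log2 change 2.48 ± 0.61 (SE), limma adjusted p = 0.00465), a call that held in all 21 alternatives. MERTK (chr2:111898607-112029561), a receptor tyrosine kinase of the TAM family named here after its values were seen, stood at 32.7, 28.9 and 31.5 in Control and 123, 122 and 142 in DTP (log2 change 2.02 ± 0.59 (SE), limma adjusted p = 0.0127), and lost its call in 4 of 21 alternatives, among them without Control replicate 2 and without DTP replicate 3. For RAI2 (chrX:17800049-17861298), a retinoic acid-induced nuclear protein also named after its values were seen, the levels were 33.8, 38.1 and 40.9 in Control and 168, 169 and 165 in DTP (log2 change 2.13 ± 0.71 (SE), limma adjusted p = 0.0240). Its Control and DTP libraries lay well apart, but the call was lost in 10 of 21 alternatives, those without any 1 of the 6 libraries compared included. HSPB8 was called at the edge of the threshold (log2 change 2.11 ± 0.82 (SE), limma adjusted p = 0.0465) and lost the call in 13 of 20 alternatives, 10 of which left out a single library of any group. The count of members called higher fell to 1 without Control replicate 2 or without DTP replicate 3, and to 2 without any of Control replicates 1 and 3 and DTP replicates 1 and 2.

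**Figure D3:**
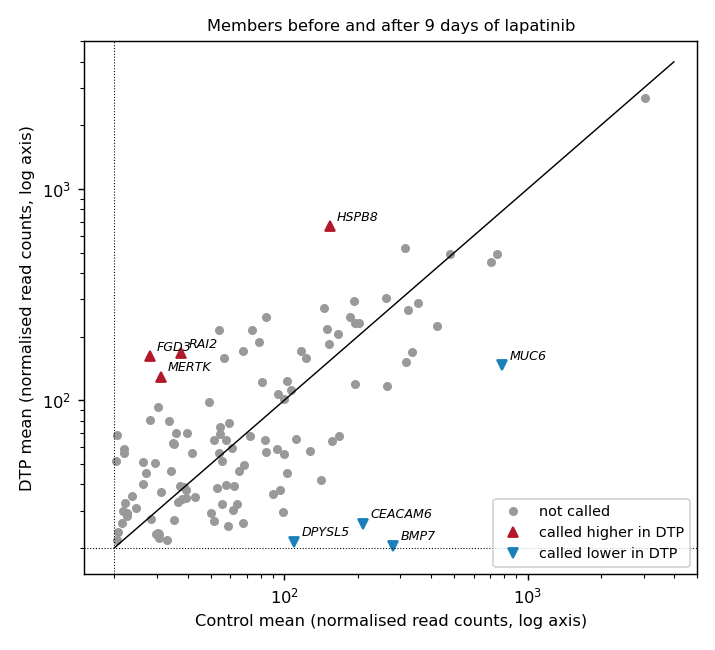
Mean normalised read counts of the 118 members in Control (horizontal, log axis) and DTP (vertical, log axis), 3 libraries per mean, with a line of equality and dotted lines at the floor of 20. The members lie on both sides of the line, the 4 called lower (BMP7, CEACAM6, DPYSL5 and MUC6) below it and the 4 called higher (FGD3, HSPB8, MERTK and RAI2) above it.

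The DTEP libraries, taken at month 6, stood between the early groups and LR, and by the members' summed level they differed from each other more than the libraries of any other group. Summed over the 118 members, the normalised read counts were 15732 to 16030 in the Control libraries and 14866 to 15398 in DTP. They were 2257, 796 and 94.0 in DTEP replicates 1, 2 and 3, and 15.3, 18.0 and 30.7 in LR replicates 1, 2 and 3. The sum in DTEP replicate 3 was thus nearer to LR than to DTEP replicate 1, and 11 members had no read in it, against 39, 64 and 32 in the LR libraries. Because replicate 3 stood apart from the other DTEP libraries, the counts of calls and the shares kept in DTEP are given with and without it.

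The levels in DTEP were a small share of the early ones for most members, and the share differed between members. As a percent of the mean of the Control and DTP means, the median member stood at 11.9% in DTEP replicate 1 (interquartile range 8.42 to 17.7), at 4.51% in replicate 2 (3.26 to 6.55) and at 0.530% in replicate 3 (0.310 to 0.892). Single members ran from 0.286% to 45.8% in replicate 1, and 88 of 118 lay within 2-fold of the median there, 79 of 118 in replicate 2 and 69 of the 107 with a read in replicate 3. The order replicate 1 above replicate 2 above replicate 3 held in 116 of 118 members. From replicate 1 to replicate 2 the median ratio was 2.63 (interquartile range 2.06 to 3.35), and from replicate 2 to replicate 3 it was 8.04 (5.49 to 13.0) over those 107 members. The 3 DTEP replicates carry no order in time, and why they differ was not tested.

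**Figure D4:**
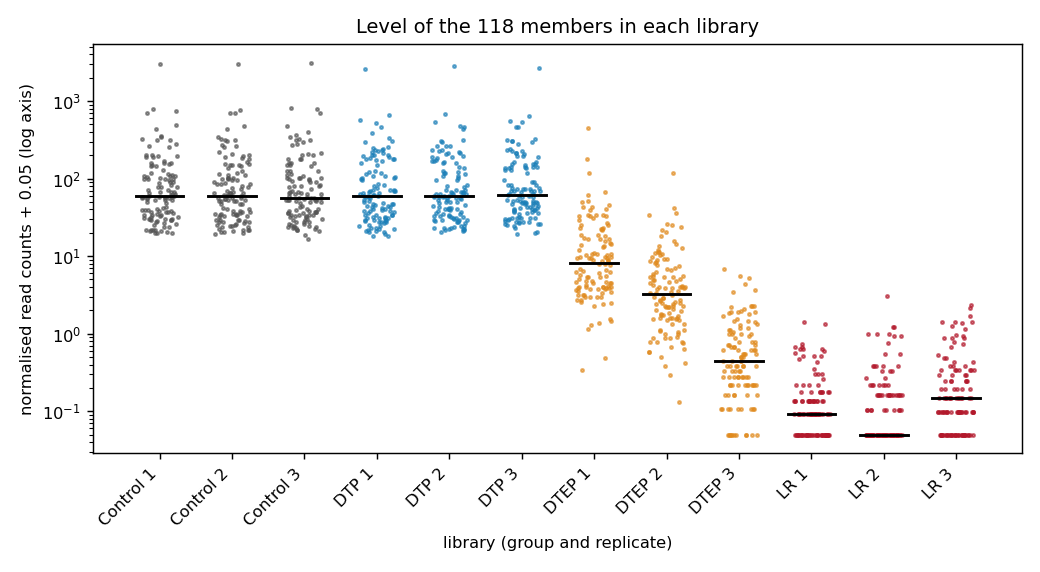
Level of each of the 118 members in each of the 12 libraries (normalised read counts with 0.05 added, log axis), with a black line at the median and points at the bottom for members without a read. The members form level bands in Control and DTP, lie lower and at 3 different heights in DTEP replicates 1, 2 and 3, whose sums are 2257, 796 and 94.0, and reach the limit of detection in LR.

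What remained in DTEP replicates 1 and 2 resembled the DTP level of a member more than its Control level, and in replicate 3 the difference was small. Across the 118 members, the DTEP replicate 1 level as a percent of the DTP mean had a median of 12.2% with an SD of 0.85 on the log2 scale, and 90 members lay within 2-fold of that median. As a percent of the Control mean the median was also 12.2%, but the SD was 1.54 and 69 members lay within 2-fold. Pearson's r on the log2 scale across the 118 members was 0.865 between DTEP replicate 1 and DTP (Spearman's rho 0.835) and 0.507 between DTEP replicate 1 and Control (rho 0.458). In replicate 2 the r was 0.799 with DTP and 0.517 with Control, and in replicate 3, over 107 members, 0.711 and 0.633. The SD in replicate 3 was 1.19 against DTP and 1.34 against Control. The rule had used both the Control and the DTP means. These correlations describe genes within libraries, which share their depth and scaling and are not replicates, and no p is given.

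**Figure D5:**
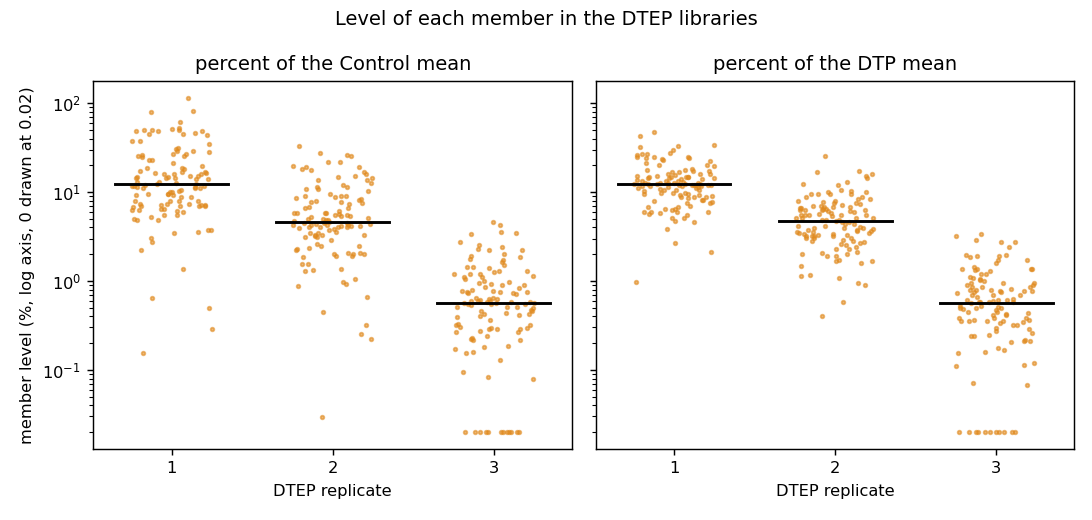
Level of each member in DTEP replicates 1, 2 and 3 as a percent of its Control mean (left) and of its DTP mean (right), log axis, 0 drawn at 0.02, with a line at the median. In replicate 1 the medians are alike at 12.2%, and the points lie closer together against DTP (SD 0.85, log2) than against Control (SD 1.54).

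The members that kept the most and the least of their early level in DTEP follow. RHOBTB3 (chr5:95717624-95796361), an atypical BTB domain protein, kept the most in DTEP, with a mean of 22.5% of the Control and DTP level, and stood at 100.1, 99.4 and 82.5 in Control and 70.7, 95.6 and 153 in DTP, then at 45.9, 18.2 and 3.37 in DTEP and 0.676, 0.941 and 0.872 in LR. GPNMB (chr7:23246775-23275108), a transmembrane glycoprotein, kept 20.9% and stood at 77.2, 84.6 and 80.9 in Control and 108, 119 and 138 in DTP, then at 40.8, 20.4 and 2.25 in DTEP and 0.0422, 0.221 and 0.291 in LR. PLXDC2 (chr10:19816432-20289856), a plexin domain-containing membrane protein, kept 20.2% and stood at 30.4, 35.9 and 32.7 in Control and 18.2, 22.8 and 24.6 in DTP, then at 10.3, 5.56 and 0.730 in DTEP and 0, 0.166 and 0.145 in LR. In all 3 genes DTEP replicate 1 carried most of the group mean, and every DTEP library lay above every LR library. RIMS4 (chr20:44751808-44810546), of a family that regulates exocytosis, kept 19.0% and stood at 20.7, 22.3 and 23.3 in Control and 31.2, 34.6 and 32.4 in DTP, then at 10.7, 3.95 and 0.954 in DTEP and 0.169, 0 and 0.242 in LR. HSPB8, with the values given above, kept 18.1% of the mean of its Control and DTP means and 11.2% of its DTP mean alone. Without DTEP replicate 3 the shares were 32.0% for RHOBTB3, 30.2% for GPNMB, 29.0% for PLXDC2, 26.7% for RIMS4 and 26.6% for HSPB8, and ID4, at 26.7%, then stood between RIMS4 and HSPB8.

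At the other end were the members called lower by day 9. BMP7 kept 0.126% in DTEP, with 0.431, 0.0824 and 0.0561 in DTEP and 0.0422, 0 and 0 in LR. MUC6 kept 0.503%, CEACAM6 0.528% and DPYSL5 0.964%, and all 4 members called lower in DTP were among the 5 that kept least. The Control mean is part of the reference for this share. A member that had fallen by day 9 is thereby given a lower share, and no link between the 2 is read from the ranking. The fifth, ALOX15B (chr17:8039059-8049134), a lipoxygenase that oxygenates arachidonic acid, kept 1.20% and stood at 98.8, 96.2 and 102 in Control and 29.2, 31.4 and 27.9 in DTP, then at 0.287, 1.52 and 0.505 in DTEP and 0.127, 0 and 0.0484 in LR. ALOX15B had also fallen by day 9, under the size needed for a call (log2 change -1.72, limma adjusted p = 7.28e-05). In ALOX15B, unlike BMP7, replicate 2 was the highest of the DTEP libraries. CEACAM6 stood at 1.34, 0.535 and 0 in DTEP and 0, 0.111 and 0.0484 in LR, and DPYSL5 at 1.48, 0.247 and 0.168 and 0, 0.0553 and 0.0484. Without DTEP replicate 3 the same 5 genes kept least, from 0.170% in BMP7 to 1.41% in ALOX15B. Measured against the DTP mean, the DTEP mean of BMP7 was 0.928% and that of ALOX15B 2.62%.

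Every member was called lower in DTEP than in DTP, in a test whose DTP side the rule had used. In limma, 118 of 118 were called lower in DTEP than in DTP, where 5.82% of the genes at the floor and 7.02% of all genes tested were, with a median log2 change of -4.14 (range -5.60 to -2.17) and a largest adjusted p of 0.00212. Every DTEP library lay below every DTP library in all 118, where 32.8% of all genes tested were lower in every library. Without DTEP replicate 3, which stood apart, 116 were called, the exceptions being RHOBTB3 and PLXDC2, whose log2 changes were then -1.77 and -1.40. DTEP was also lower than Control in 117 of 118 members (background 5.3% at the floor and 6.2% of all tested), with a median log2 change of -4.09, and in 100 of 118 without DTEP replicate 3. The single member not called was ID4 (chr6:19837370-19842197), an inhibitor of basic helix-loop-helix transcription factors named here after its values were seen, which stood at 21.1, 23.8 and 16.6 in Control and 64.8, 66.5 and 73.6 in DTP, then at 16.9, 6.80 and 0.337 in DTEP and 0, 0 and 0 in LR (log2 change -1.90 ± 0.66 (SE), limma adjusted p = 0.0264). The comparisons with DTP and with Control share the DTEP libraries. The members were chosen as high in Control and DTP and nearly absent in LR, the stage after DTEP. The background genes were not chosen in that way, so the counts describe how far the loss had gone by month 6 and support nothing further.

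Members and neighbours on the scale of loss differed in DTEP replicate 3 in particular. Genes at the floor whose LR level was above 1% and up to 5% (36 genes) had medians of 15.3%, 6.03% and 2.26% of the Control and DTP level in DTEP replicates 1, 2 and 3, against 11.9%, 4.51% and 0.530% in the members. Genes at 5% to 25% in LR (220 genes) had medians of 24.5%, 14.1% and 10.2%. The genes with the opposite course, 52 that had at least 20 in LR and at most 1% of that in Control and DTP, stood in DTEP replicates 1, 2 and 3 at medians of 73.8%, 79.1% and 88.8% of their LR level. The LR level chose all of these groups, and the DTEP medians are a description.

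The last step, from DTEP to LR, is given as a description, since the rule fixed the LR side. On the log2(value + 1) scale the change had a median of -1.80 over the 118 members (range -5.45 to -0.22). TCN1 fell by 5.45, HSPB8 by 4.70, DHRS2 by 4.06 and ATP9A by 4.03. The change was -0.22 in BMP7, -0.54 in CEACAM6 and -0.57 in DPYSL5, for which less than 1 normalised read count remained in the DTEP mean.

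The role groups had medians close to each other. The median in DTEP replicate 1 lay between 8.37% for secreted and matrix proteins and 13.1% for surface receptors and adhesion proteins. In LR the medians lay between 0.0757% for secreted and matrix proteins and 0.198% for metabolic enzymes. Receptor tyrosine kinases among the surface proteins included MET (chr7:116672196-116798377), the receptor of hepatocyte growth factor, which stood at 89.7, 84.4 and 79.1 in Control and 44.5, 56.5 and 68.8 in DTP, then at 6.08, 3.83 and 0.393 in DTEP and 0, 0 and 0.0484 in LR, and MERTK, which stood at 16.4, 4.74 and 0.617 in DTEP and 0.0845, 0.111 and 0.291 in LR. Both had lost nearly all reads in LR, and MET was named after its values were seen.

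Other members with well known roles were chosen for description after their values were seen. NRP1 (chr10:33177493-33334667), a co-receptor for semaphorins and VEGF, stood at 86.7, 84.6 and 79.5 in Control and 193, 220.2 and 326 in DTP, then at 43.3, 21.7 and 1.85 in DTEP and 0.253, 0.0553 and 0.630 in LR. GFRA1 (chr10:116056925-116274705), the co-receptor of the growth factor GDNF, stood at 78.1, 76.2 and 67.3 in Control and 202, 212 and 228 in DTP, then at 33.6, 8.44 and 1.29 in DTEP and 0.127, 0 and 0.291 in LR. For these receptor subunits the DTP libraries were the highest. They did not pass the test against Control in the model over all 12 libraries (adjusted p in limma of 0.0950 for NRP1 and 0.0736 for GFRA1). SMO (chr7:129188633-129213545), the transducer of Hedgehog signals, stood at 41.4, 40.3 and 43.5 in Control and 59.8, 57.0 and 51.7 in DTP, then at 3.06, 0.535 and 0 in DTEP and 0.127, 0 and 0.0969 in LR. CD44 (chr11:35139171-35232402), the hyaluronan receptor, stood at 37.4, 35.2 and 37.2 in Control and 29.5, 31.7 and 37.6 in DTP, then at 9.76, 4.94 and 0.281 in DTEP and 0.0845, 0 and 0.0484 in LR. CD44 held 14.4% of its Control and DTP level in the DTEP mean and SMO 2.45%, or 21.1% and 3.68% without DTEP replicate 3.

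Transcription factors and enzymes among the members gave further examples. TEAD1 (chr11:12674421-12944737), the DNA-binding partner of YAP, stood at 171, 176 and 156 in Control and 46.8, 57.9 and 97.2 in DTP, then at 10.7, 5.40 and 1.07 in DTEP and 0.465, 0.332 and 0.436 in LR. ELF5 (chr11:34478791-34513794), an ETS factor of the mammary gland, stood at 38.8, 41.0 and 38.2 in Control and 34.3, 36.3 and 42.4 in DTP, then at 8.95, 5.40 and 0.337 in DTEP and 0.0422, 0 and 0.0969 in LR. All DTP libraries of TEAD1 lay below its Control libraries (log2 change -1.37 ± 0.48 (SE), limma adjusted p = 0.0294, under the size needed for a call), whereas those of ELF5 overlapped with Control. PSAT1 (chr9:78297125-78330093), an enzyme of serine synthesis, stood at 111, 118 and 107 in Control and 57.4, 65.2 and 73.9 in DTP, then at 3.92, 0.741 and 0.898 in DTEP and 0.0422, 0.111 and 0.145 in LR. FBP1 (chr9:94603133-94640263), an enzyme of gluconeogenesis, stood at 113, 116 and 124 in Control and 189, 175 and 148 in DTP, then at 16.6, 4.86 and 1.80 in DTEP and 0.634, 0.111 and 0.824 in LR. In PSAT1, DTEP replicate 3 lay above replicate 2, and in FBP1 the DTEP libraries lay in the usual order with all of them above LR. GNAQ (chr9:77716097-78031811), a G protein alpha subunit, stood at 129.7, 137 and 116 in Control and 43.9, 56.2 and 72.4 in DTP, then at 8.56, 3.95 and 0.337 in DTEP and 0, 0 and 0.0969 in LR. SYK (chr9:90801600-90898549), a cytoplasmic tyrosine kinase, stood at 35.6, 33.5 and 36.7 in Control and 27.2, 26.5 and 27.6 in DTP, then at 3.88, 1.52 and 0.0561 in DTEP and 0.0422, 0 and 0 in LR. In both genes every DTP library lay below every Control library. In GNAQ every DTEP library lay above every LR library. In SYK, DTEP replicate 3 and LR replicate 1 each held 1 read, so their order was not resolved.

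The estrogen response genes were examined as the pathway to which several members belong. On a list of 34 estrogen-responsive genes, 33 were tested and 5 were members: GREB1, TFF1, HSPB8, CXCL12 and SUSD3. CXCL12 (chr10:44370165-44385097), a chemokine, stood at 29.0, 27.3 and 28.8 in Control and 24.7, 27.2 and 30.2 in DTP, then at 1.39, 0.577 and 0 in DTEP and 0, 0 and 0 in LR. SUSD3 (chr9:93058701-93085133), a cell-surface protein with a sushi domain, stood at 27.1, 25.3 and 26.0 in Control and 60.9, 50.1 and 41.8 in DTP, then at 4.55, 0.865 and 0.0561 in DTEP and 0, 0 and 0 in LR. Neither had a read in LR, and in both the DTEP libraries lay far below DTP. Of the 33 genes, 15 were called lower and 4 higher in DTEP than in DTP (median log2 change -1.42, beside 0.08 over all genes tested, of which 7.02% were lower and 8.13% higher). Without DTEP replicate 3 these were 13 and 3 (median -1.45). The 5 members, whose DTP level the rule had used, were among those called lower with and without that replicate. In DTP 2 were called lower and 1 higher than in Control (median -0.07), beside 3.90% and 1.01% of all genes tested. In LR against Control 16 were lower and 0 higher, beside 7.80% and 5.03% of all genes tested. The 5 members, chosen for that loss, were among the 16. XBP1, a transcription factor of secretory cells on the list, was no member and stood at means of 1027 in Control and 3561 in LR, and MYB at 47.5 and 59.0. The list was chosen with earlier results of these data known and is no independent evidence of its direction. ESR1, the estrogen receptor itself, and PGR, the progesterone receptor, met the rule but were left out of the members by name.

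None of the genes that encode the DNA methylation and Polycomb machinery was a member. Of 22 listed, 21 were tested. The listed genes write, read or remove methyl groups on DNA, form the Polycomb repressive complexes or, as KDM6A and KDM6B, remove the histone mark of Polycomb. DNMT1, the maintenance methyltransferase, stood at a mean of 507 in Control, and at 118, 292 and 233 in the DTP, DTEP and LR groups. EZH2, the Polycomb methyltransferase, had a mean of 149.7 in Control, and of 51.6, 71.3 and 44.7 in the later groups in the same order. In DTP against Control 3 of the 21 were called lower and 0 higher, beside 3.90% and 1.01% of all genes tested. In DTEP against DTP 1 was called lower and 2 higher, with or without DTEP replicate 3, beside 7.02% and 8.13% with all libraries. In LR against Control 0 were called in either direction, beside 7.80% lower and 5.03% higher. Their part in the members' levels was not tested.

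Markers of the luminal epithelium remained detectable in LR. Of 11 such markers, 1 was called lower in LR against Control, CDH1, which encodes E-cadherin (means of 1125 and 75.1), and 1 higher, the transcription factor GATA3 (means of 190 and 1251), and none was a member. Over all genes tested 7.80% were called lower and 5.03% higher. Under the size needed for a call, ERBB2 fell (means of 6526 and 1774, log2 change -1.88, limma adjusted p = 1.68e-05). The means of KRT7, KRT8, KRT18 and KRT19 were also lower in LR, and those of EPCAM, FOXA1, SPDEF and ELF3 higher. Summed, they gave 12122 to 12960 in the Control libraries, 14715 to 17673 at day 9, 6082 to 7911 at month 6 and 5366 to 7325 at month 9. Markers of other cell types were mostly at or near 0, with TP63 and COL1A1 as the exceptions of highest level in LR. The summed level of 7 basal or myoepithelial markers was 11.8 to 14.3 in Control and 4.38 to 6.91 in DTP libraries, then 9.57 to 32.9 at month 6 and 21.0 to 67.2 at month 9, with means of KRT5 and KRT14 at or under 0.0323. Most of the later sum came from TP63, a transcription factor of basal cells, which stood at 5.52, 5.00 and 4.29 in Control, 0.365, 0.839 and 1.15 in DTP, 5.79, 28.8 and 11.1 in DTEP and 45.7, 65.6 and 16.4 in LR, and was called higher in LR than in Control (log2 change 2.68, limma adjusted p = 0.000791). For 7 fibroblast markers the sum was 51.3 to 61.8 in Control and 48.4 to 59.3 in DTP libraries, then 79.9 to 121 at month 6 and 98.4 to 130.4 at month 9, nearly all of it from COL1A1, a collagen chain with means of 55.3, 54.4, 99.8 and 111 in the 4 groups in order of time, the other 6 having group means of at most 0.160. For 7 immune markers it was 2.25 to 3.59 in Control and 5.76 to 7.21 in DTP libraries, then 2.53 to 4.98 at month 6 and 1.26 to 1.65 at month 9, with CD3E and NKG7 at 0 in every library. The sum of 4 endothelial markers was 8.14 to 8.94 in Control and 2.19 to 2.66 in DTP libraries, then 0.206 to 0.431 at month 6 and 0.127 to 0.332 at month 9, most of it in Control from VWF. The 8 apocrine breast genes, partly chosen with earlier results known, summed to 386 to 406 in Control and 142 to 181 in DTP libraries, then 2416 to 3898 at month 6 and 4819 to 5290 at month 9, opposite to the members, although ALOX15B among them was a member. What part a change in the make-up of the cell population had in the loss was not tested.

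The members were spread over 22 of the 23 chromosomes on which genes at the floor lay. On GRCh38.p14 they made up 4 of the 64 genes at the floor on chromosome 21 (6.25%), 10 of 240 on chromosome 10 (4.17%) and 8 of 226 on chromosome 20 (3.54%), but 5 of 707 on chromosome 1 (0.707%) and 0 of 170 on chromosome 22. Some lay side by side. Pairs with no other gene tested between the members included FGD3 with SUSD3, AFF3 with LONRF2, ZNF135 with ZSCAN18, and ARSD with MXRA5. FGD3 and SUSD3 lie at chr9:92947523-93036233 and chr9:93058701-93085133 on chromosome 9. In both, every DTP library lay above every Control library before the loss. The change of SUSD3 was under the size needed for a call and did not pass the test in the model over all 12 libraries (log2 change 0.92 ± 0.44 (SE), limma adjusted p = 0.0950). A zinc finger cluster on chromosome 19 held ZNF441, ZNF433 and ZNF844 within chr19:11767000-12081565, and the HOXB cluster held HOXB7 and HOXB13. HOXB7 stood at 60.5, 60.1 and 56.2 in Control and 84.0, 81.3 and 69.2 in DTP, then at 9.43, 2.39 and 0.0561 in DTEP and 0.0422, 0 and 0 in LR, and HOXB13 at 81.5, 78.4 and 89.8 in Control and 67.3, 67.7 and 58.7 in DTP, then at 2.97, 0.371 and 0 in DTEP and 0.0422, 0 and 0 in LR. Of the 220 nearest tested neighbours of members that were not members themselves, 52 (23.6%) were called lower in LR than in Control, where 7.0% of all tested genes that were not members, and 7.8% of all genes tested, were. Neighbours can share reads where genes overlap, since strand was ignored in counting if the default settings were kept, and the spans of 30 members overlap another listed gene.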

How the data were processed

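The study made stranded mRNA libraries, aligned reads to hg38 with Rsubread and counted them on RefSeq gene models with default settings, which ignore strand. The submitters' processing notes also name bcl2fastq and edgeR. The deposited table holds a normalised signal per gene and library; each of its 199680 non-zero values (100%) gave whole reads to within 1.2e-09, and the scaling equalled CPM of the TMM-scaled library size. Differences were tested with limma 3.58.1 in R 4.3.3 on log2(value + 1), which understates changes of low genes, in 1 model over all 12 libraries without covariates, with a variance trend, two-sided, over 13794 genes with at least 1 in at least 3 libraries. Alternatives, edgeR 4.0.16 and DESeq2 1.42.0 on recovered whole reads included, are given in the closing section, and the steps were tested on simulated data. Described with per-library values were the 12 members of highest level, the 5 keeping most and the 5 keeping least in DTEP, the 5 with the largest called change in DTP, the estrogen list members and those nearest the limit. Other genes were named after their values were seen. The members and lists were chosen with earlier results of these data known. The limit of 3 reads covers counting error only. SEs and SDs rest on the spread between libraries, and interquartile ranges describe the spread between members. Each SE pools the spread of all 4 groups, so scatter among the DTEP libraries enters the tests of DTP against Control. Coordinates and promoter sequences are from RefSeq on GRCh38.p14, where all 118 members were matched by identifier. Some results on single genes are not reported here.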

Additional observations from a re-analysis of the deposited data

How the results depend on the processing

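The count of members called lower in DTEP than in DTP, 118, stayed within 111 (DESeq2, which gave no adjusted p for the other 7) and 118 in every alternative, and that in DTEP against Control, 117, within 100 and 118. The 4 members called higher in DTP became 1 with a pseudocount of 0.1, 2 with 0.5, 1 without a filter, 2 with DESeq2, 10 at an absolute log2 change above 1, and 1 to 4 when a library was left out; the 4 called lower became 15 at an absolute log2 change above 1. For LR against DTEP the rule fixed the LR side, so its planned count of members called lower, 41, supports nothing and is given here alone. It became 92 with a pseudocount of 0.1, 64 with 0.5, 113 with edgeR and 108 with DESeq2. It became 0 without a filter (47 at an unadjusted p) and 0 with only the 6 libraries compared (46 at an unadjusted p), and 0 to 72 when a library was left out. The number of members was 197 at a floor of 10, 59 at a floor of 40, 98 and 129 at limits of 0.5% and 2%, and 114 to 124 when a library was left out. The log2 change from Control to DTP turned sign in GREB1 (-0.0753) and RHOBTB3 (-0.186) without DTP replicate 3, and in CXCL12 without DTP replicate 1 (0.0176), with edgeR (0.0121) and with DESeq2 (0.0106), none of them called. With a library left out it ran from -0.0753 to 0.0683 in GREB1, from -0.186 to 0.365 in RHOBTB3 and from -0.123 to 0.0176 in CXCL12. Median-of-ratios rescaling moved the median of all genes by -0.10 from DTP to DTEP and changed no count by over 1.5 times.

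Replicate numbers are shared between groups but did not pair the libraries, the correlations of same-numbered deviations being -0.442 to 0.359. With the replicate number as a block, 118 members were called lower in DTEP than in DTP, 117 in DTEP than in Control and 35 in LR than in DTEP, and 4 were called higher and 4 lower in DTP.

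Depth limits LR, where 70 members had 3 reads or fewer in every library, and folds against LR cannot be resolved there. The DTEP means rest mainly on replicate 1. The causes of these shifts were not tested. The shares kept and the list counts without DTEP replicate 3 were chosen after seeing the data.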

Other observations

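Relatives of members, chosen after values were seen, went different ways. Of 20 looked at that were not members, 12 had an LR mean of at least 20 and 8 a lower one. The 12 were not all unchanged. TUBB went from a mean of 1709 in Control to 645 in LR and KRT8 from 987 to 351. CFL1, KRT19 and ERBB2 were also lower in LR, while the relatives described next held or rose. LDHA, the other main lactate dehydrogenase subunit, stood at means of 567 ± 9.87 in Control and 609 ± 89.8 in LR (SD, n = 3), while LDHB had no read in LR. TEAD3, a DNA-binding partner of the YAP coactivator, stood at 62.4 ± 3.54 in Control and 134 ± 17.1 in LR, and TEAD1, a member, at 168 ± 10.3 and 0.411 ± 0.0698. GNA11 stood at 66.6 ± 4.74 and 75.9 ± 11, and GNAQ, a member that encodes the closely related G protein alpha subunit, at 128 ± 10.7 and 0.0323 ± 0.0559. MAT2A, the methionine adenosyltransferase of most tissues, stood at 381 ± 3.09 and 785 ± 115, and MAT1A, the liver-type enzyme and a member, at 21.4 ± 0.417 and 0. Other relatives were lost or hardly detected. EGFR, of the receptor tyrosine kinases like MET, went from a mean of 20.4 in Control to 0.456 in LR, HOXB9 from 14.6 to 0.0141 and HOXB6 from 2.71 to 0, beside the loss of the members HOXB7 and HOXB13 of the same cluster. AXL, a relative of MERTK, had a mean of at most 0.0896 in any group. HOXB2 and HOXB3 went the other way, from 0.0309 and 0.0954 in Control to 6.30 and 3.46 in LR. Reads shared between such relatives could not be separated here. The LR levels of the members chose them, so these pairs are a description and carry no test.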
